A study of Oryza sativa Indica Group with 6 samples.

Results

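The circadian clock genes of rice were followed in seedlings of the semi-dwarf mutant *sd37* and of its wild type, cultivar 3037. The set holds 7 genes, *LHY*, *PRR73*, *PRR37*, *PRR95*, *GI*, *PRR1* and *PCL1*, chosen by gene name and by a listed probe set each. They were chosen with earlier results of these data known, replicate 1 standing apart included. With every other probe set annotated to the same genes, they are measured by 10 of the 57194 probe sets tested. The mutant *sd37* arose spontaneously in cultivar 3037 (*Oryza sativa* ssp. *indica*) and carries a point mutation in the cytochrome P450 gene *CYP96B4*. The wild type is cultivar 3037 itself. Seedlings of both genotypes were 2 weeks old and grew in a phytotron with 16 h of light at 26°C and 8 h of dark at 18°C. Each genotype has 3 biological replicates, numbered 1 to 3, with 1 Affymetrix Rice Genome Array per replicate. The sources used here give neither the time of day at which seedlings were harvested nor what a replicate number stands for, and so p-values measure the spread between these arrays.

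The plant clock is a loop of genes that repress each other in turn through the day. LHY is a MYB transcription factor of the morning. The pseudo-response regulators PRR73, PRR37 and PRR95 follow in the course of the day and repress the morning gene. GI, a large plant-specific protein, peaks toward evening, together with PRR1, the rice counterpart of *Arabidopsis* TOC1, and PCL1, the counterpart of the *Arabidopsis* evening complex factor LUX. In rice the clock sets heading date, and PRR37 delays flowering in long days. Transcript levels of these genes change with the hour of sampling in any wild-type plant.

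Levels are given as the deposited linear signal of a probe set. Differences are on the log2 scale after signals under 1 were set to 1, with the standard error (SE) of limma. A call needed a change of at least 1.5-fold and an adjusted p (Benjamini-Hochberg, over all probe sets tested) under 0.05. The median signal of an array was 56.3, 34.4 and 34.1 in *sd37* replicates 1 to 3 and 51.1, 33.8 and 32.4 in wild-type replicates 1 to 3. The number of arrays limits the precision. Since *sd37* carries a substitution, its transcript would not check the labels, and no probe set was matched to *CYP96B4* by name.

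No clock gene was called different between *sd37* and the wild type. The log2 differences of the 7 listed probe sets, *sd37* minus wild type, lay between -0.11 for *PRR1* and 0.14 for *PRR95*, with a median of -0.01 beside 0.02 over all probe sets. Of the 7 genes, 0 were called by limma, where 0 of 57194 probe sets (0%) were called in all. At an unadjusted p under 0.05, 0 of the 7 passed, beside 1254 probe sets (2.19%). The ordinary analysis of variance that the methods name also called 0 of 7, beside 0 of 57194 probe sets (0%). The smallest unadjusted p among them was 0.616, for *PRR95*. The signals of *sd37* and wild-type arrays overlapped for each of the 7, whereas 6.07% of all probe sets showed no overlap. With 3 arrays against 3, an exact permutation test could not go below p = 0.1.

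The precision of this comparison rests on the replicate numbers. Without a block the SE of the 7 differences was 0.21 to 0.77, and with the replicate number as a block it was 0.09 to 0.30. The blocked fit called 0 of the 7 as well, with adjusted p from 0.885 to 0.996, beside 6 probe sets in all (0.0105%), and a fit to replicates 2 and 3 only called 0 of the 7 beside 17 in all (0.0297%). The 95% intervals of the blocked fit bound a difference of *LHY* between 0.914-fold and 1.26-fold and of *PRR73* between 0.805-fold and 1.23-fold. They were 0.804-fold to 1.22-fold for *PRR37* and 0.819-fold to 1.1-fold for *GI*. For *PRR95* the interval was 0.934-fold to 1.3-fold and for *PRR1* 0.719-fold to 1.2-fold. Among the blocked intervals only that of *PCL1*, from 0.611-fold to 1.57-fold, reached beyond a 1.5-fold change in either direction. Without the block the 95% intervals were wider, on the log2 scale -1.60 to 1.59 for *PRR73* and -1.80 to 1.78 for *PRR37*. The narrow bounds thus rest on the block, and the labels do not say that equal numbers pair the arrays. In replicate 3 alone 6 of the 7 had a higher signal in *sd37*, with log2 differences of 0.38 for *PRR73*, 0.37 for *PRR37*, 0.34 for *PRR95*, 0.32 for *LHY*, 0.21 for *PRR1* and 0.00 for *GI* (8417.7 in *sd37* and 8401.3 in the wild type). In replicate 1 these 6 genes lay between -0.38 and -0.06. Differences within a replicate number come from 1 array of each genotype and were not tested.

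**Figure D1:**
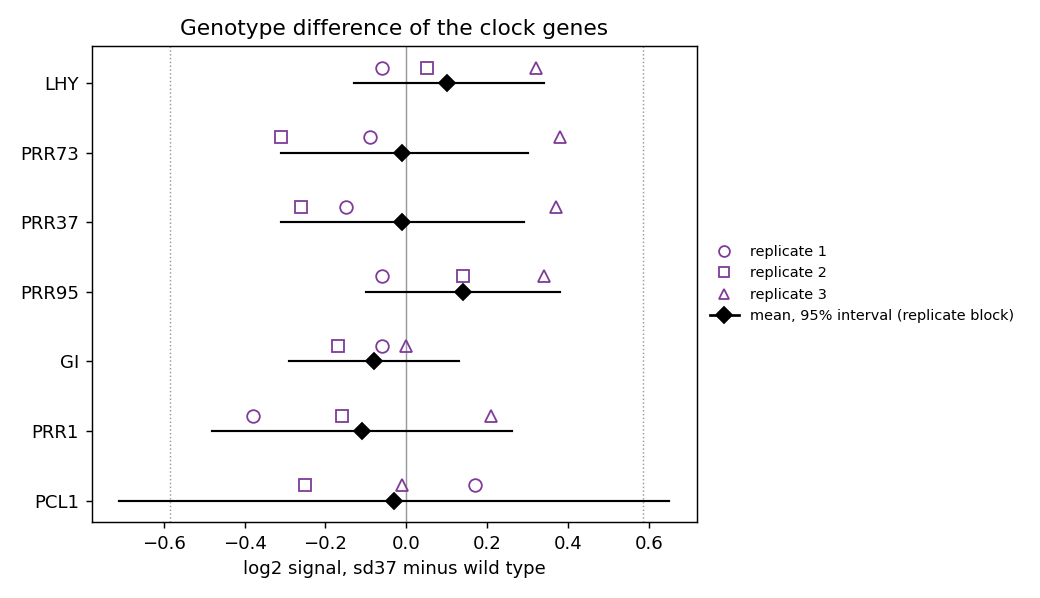
Log2 signal of each clock gene (listed probe set), *sd37* minus wild type. Open symbols are the differences within replicates 1, 2 and 3, diamonds and lines are the mean and its 95% interval from the limma fit with the replicate number as a block, and dotted lines mark a 1.5-fold change. Every interval includes 0, and that of *PCL1* alone crosses the dotted lines.

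By replicate number, in contrast, 5 of the 7 clock genes differed at their listed probe sets. The 7 were chosen with replicate 1 known to stand apart, so their counts describe these genes and are no independent support. The other probe set of *PRR37*, outside the 7, was not called. *PRR73*, *PRR37*, *PRR95* and *GI* were higher and *PRR1* was lower in both arrays of replicate 1 than in all 4 arrays of replicates 2 and 3, whatever the genotype. The listed probe set of *LHY*, which was not called, was also lower in both replicate 1 arrays than in the other 4, so that 4 of the 7 stood above and 2 below. Over all probe sets, both replicate 1 arrays were above the other 4 for 27.4% and below them for 17.6%. The moderated F test of limma over the 3 replicate numbers, with the genotype in the fit, called 5 of the 7, beside 8460 of all probe sets (14.8%). Among the 28597 probe sets at or above the median signal, where all 7 lie, 31% were called. Replicate 1 against replicate 2 gave 4 calls among the 7 (15.1% of all probe sets), 3 higher (6.95%) and 1 lower (8.17%). Replicate 1 against replicate 3 gave 5 calls (16.1%), 4 higher (7.72%) and 1 lower (8.37%). Between replicates 2 and 3 limma called 0 of the 7 and 0 of all probe sets (0%), with 2012 (3.52%) at an unadjusted p under 0.05 and 1.5-fold, and the ordinary analysis of variance gave 0 too. These contrasts compare sets of 2 arrays, 1 of each genotype. The calls rest on a spread that limma shares among probe sets of like signal. Without that intensity trend, and in the ordinary analysis of variance, 0 of the 7 were called, beside 0% and 0.00175% of all probe sets. In each, 4 of the 7 had an unadjusted p under 0.05. Of all probe sets, 20.5% and 15.6% passed that p with a 1.5-fold change as well. That rule is stricter than the one for the 4, so the shares are not alike. With signals under 16 set to 16, the F test called 0 of the 7 beside 1.66% of all probe sets.

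For *LHY*, the morning gene, the size of the difference depended on the scaling of the arrays. Its listed probe set had signals of 21739.6, 26220.1 and 29806.3 in *sd37* replicates 1, 2 and 3 and of 22710.8, 25240.6 and 23932.2 in the wild type. Both replicate 1 arrays were the lowest, by a small margin, and the genotypes overlapped. The log2 difference was 0.10 (SE 0.21) between *sd37* and the wild type. Between replicates 1 and 2 it was -0.21 (SE 0.12, adjusted p = 0.302), and between replicates 1 and 3 it was -0.27 (SE 0.12, adjusted p = 0.195). After quantile normalization both became calls, at -0.90 and -0.79, and after scaling to a common median at -0.86 and -0.96. The other probe set of *LHY* had signals of 29.2, 6.4 and 2.6 in *sd37* and 4.1, 9.2 and 1.5 in the wild type. It was not called in any contrast and was dim, with an SE above 1 in each.

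**Figure D2:**
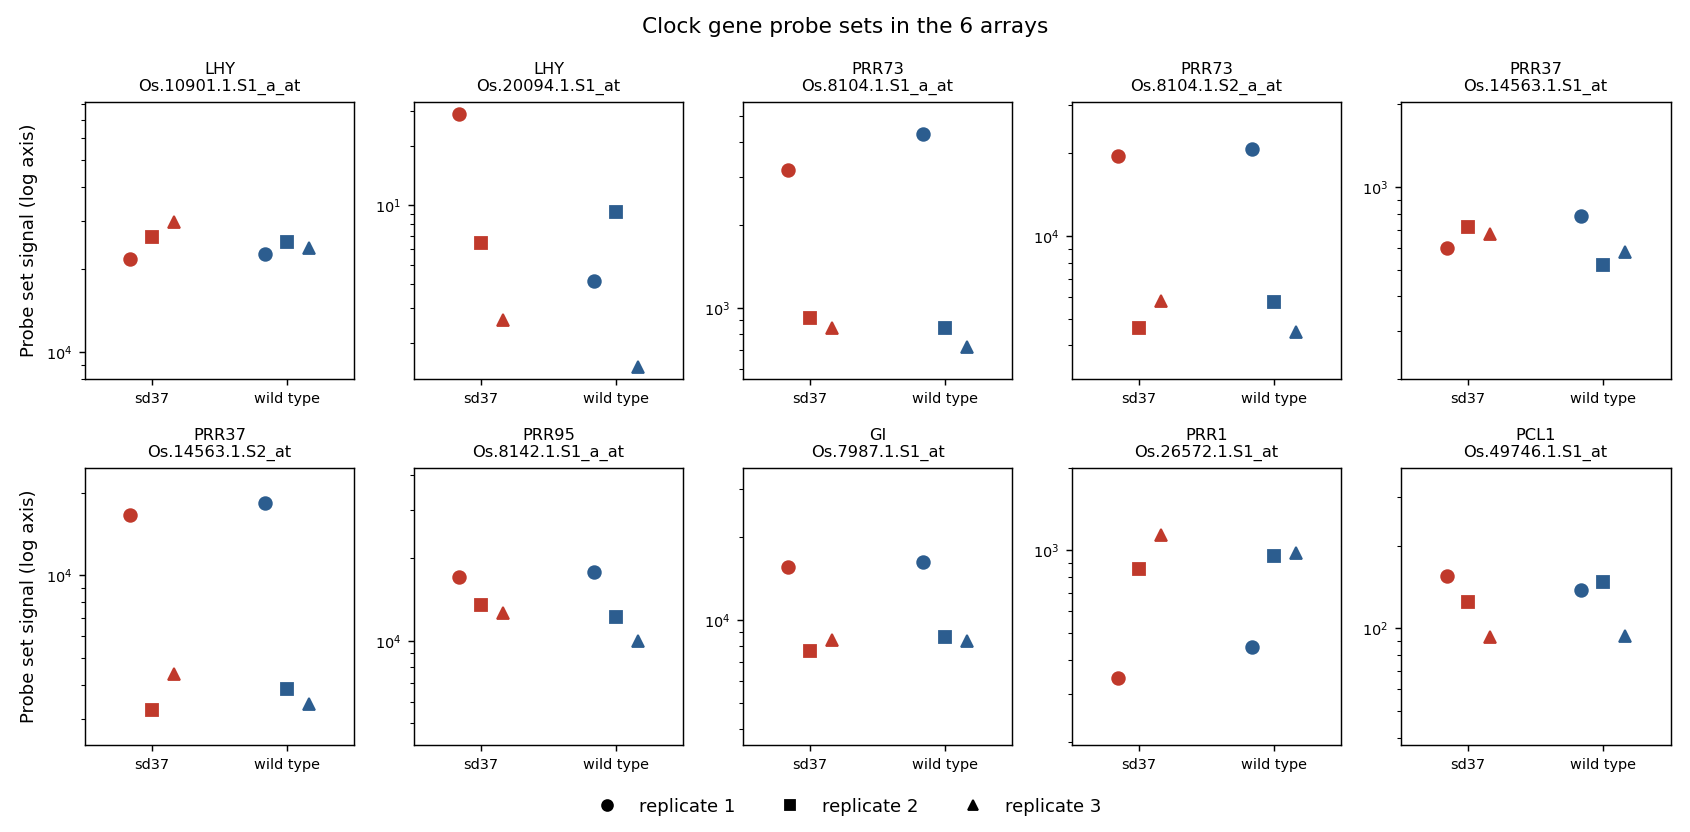
Probe set signal (log axis, set for each panel) of the 10 probe sets of the 7 clock genes in the 6 arrays, *sd37* in red and wild type in blue, with the replicate number as the symbol. Circles, replicate 1, stand above the other arrays for both *PRR73* probe sets, the listed one of *PRR37* (S2), *PRR95* and *GI*, and below them for *PRR1* and, by a small margin, the listed one of *LHY* (S1_a).

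*PRR73* and *PRR37*, paralogous regulators that act in the first part of the day, differed most in signal between replicate 1 and the others among the listed probe sets as deposited. The listed probe set of *PRR73* had signals of 19545.0, 4623.1 and 5799.8 in *sd37* replicates 1, 2 and 3 and of 20775.7, 5729.0 and 4459.7 in the wild type. Replicate 1 was thus far above the rest in both genotypes, 4.23-fold over replicate 2 in *sd37* and 3.63-fold in the wild type. Its log2 difference was 1.97 (SE 0.16, adjusted p = 0.000133) between replicates 1 and 2 and 1.99 (SE 0.16, adjusted p = 0.000118) between replicates 1 and 3. A second probe set of *PRR73* had 3162.2, 917 and 844 in *sd37* and 4276.1, 847 and 721 in the wild type. It was called in both contrasts as well, with 2.06 (SE 0.19) and 2.24 (SE 0.19).

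For *PRR37*, also known as a heading date gene, the listed probe set had signals of 16552.3, 3239.0 and 4395.5 in *sd37* and of 18343.5, 3871.0 and 3404.9 in the wild type. The replicate 1 arrays were 3.77-fold to 5.39-fold above the other arrays of their own genotype. The log2 difference was 2.30 (SE 0.16, adjusted p = 5.91e-05) between replicates 1 and 2 and of 2.17 (SE 0.16, adjusted p = 7.39e-05) between replicates 1 and 3. The other probe set of *PRR37* did not follow. It had signals of 600, 718 and 674 in *sd37* and 787, 519 and 582 in the wild type, with 0.17 (SE 0.23, adjusted p = 0.667) and 0.13 (SE 0.23, adjusted p = 0.739). The 2 probe sets of *PRR37* therefore disagree, and with no probe sequences at hand neither the transcript that each reads nor whether the probe sets separate *PRR37* from *PRR73* could be checked. The direction and the calls of *PRR73* and *PRR37* (listed probe sets) were the same under quantile normalization and under scaling to a common median.

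*PRR95*, a later regulator of the same family, moved less. Its signals were 17034.1, 13502.8 and 12641.4 in *sd37* replicates 1, 2 and 3 and 17801.0, 12246.3 and 9971.9 in the wild type. Replicate 1 was the highest of each genotype, 1.26-fold above replicate 2 in *sd37* and 1.45-fold in the wild type. Only the contrast of replicates 1 and 3 was called, at 0.63 (SE 0.13, adjusted p = 0.0103), and that of replicates 1 and 2 was 0.44 (SE 0.13, adjusted p = 0.0519). The call was lost without wild-type replicate 1 (0.48, adjusted p = 0.0748), without wild-type replicate 3 (0.48, adjusted p = 0.199) and after quantile normalization (0.37, adjusted p = 0.0898), and scaling to a common median turned the sign, to -0.06.

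*GI*, which links the clock to flowering, had signals of 15583.9, 7671.8 and 8417.7 in *sd37* and 16300.4, 8625.3 and 8401.3 in the wild type. Replicate 1 stood apart from 4 closely grouped arrays. The log2 difference was 0.97 (SE 0.11, adjusted p = 0.000672) between replicates 1 and 2 and 0.92 (SE 0.11, adjusted p = 0.000795) between replicates 1 and 3. It kept its sign but not its call when arrays were scaled to a common median, with 0.32 (adjusted p = 0.0764) and 0.23 (adjusted p = 0.192).

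*PRR1*, the TOC1 counterpart, ran the other way. It had signals of 343, 856 and 1139.4 in *sd37* replicates 1, 2 and 3 and 446, 956 and 982 in the wild type. Both replicate 1 arrays were below all others, at 0.401-fold of replicate 2 in *sd37* and 0.467-fold in the wild type. The log2 difference was -1.21 (SE 0.20, adjusted p = 0.00373) between replicates 1 and 2 and -1.43 (SE 0.20, adjusted p = 0.00144) between replicates 1 and 3, and quantile normalization and median scaling kept the sign and the call. *PCL1*, the LUX counterpart, had the weakest signal of the listed probe sets, 155, 125 and 93 in *sd37* and 138, 148 and 93.9 in the wild type. Its differences were 0.10 (SE 0.36) between replicates 1 and 2 and 0.65 (SE 0.36, adjusted p = 0.276) between replicates 1 and 3, and neither was called.

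**Figure D3:**
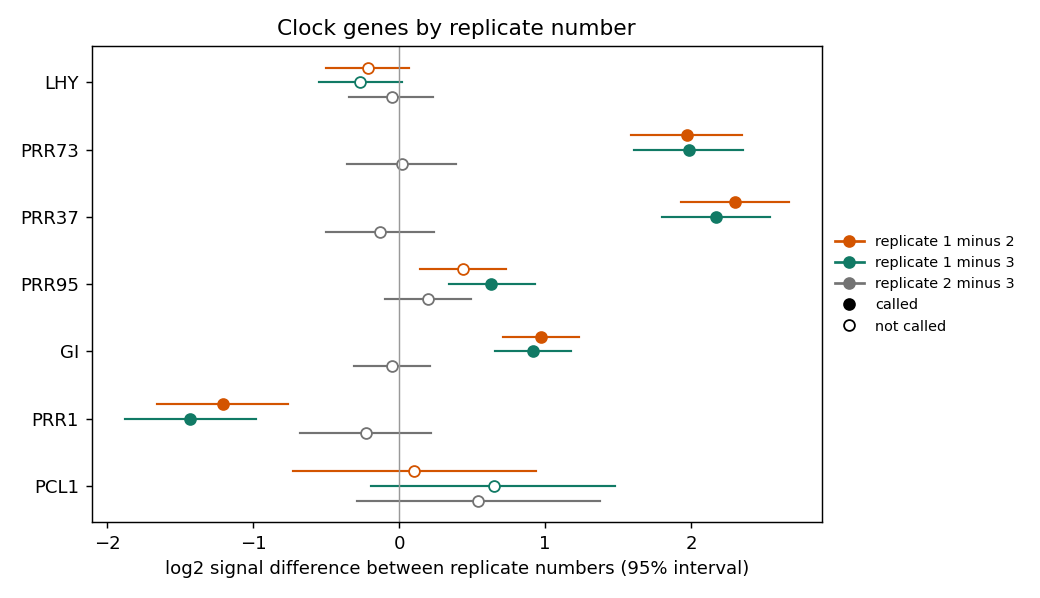
Log2 signal difference of each clock gene between replicate numbers, with 95% intervals from the limma fit that holds the genotype (2 arrays per number), filled where called. Both contrasts with replicate 1 are called for *PRR73*, *PRR37*, *GI* and *PRR1*, and the grey contrast of replicates 2 and 3 is called for none of the 7.

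The 7 genes did not follow 1 pattern. Likeness was measured as the root mean square difference between log2 signals over the 6 arrays, each centred on its own mean, so that small values mean like patterns. *PRR73* and *PRR37* were 0.14 apart, and *PRR37* had *PRR73* as its nearest of 2575 named genes. *PRR1* was farthest from both, at 1.56 from *PRR73* and 1.68 from *PRR37*. The nearest named gene to *GI* was *CKI1*, a casein kinase I, at 0.06 (6130.2, 3001.9 and 3104.8 in *sd37* against 6575.0, 3272.5 and 3540.4 in the wild type). *HAK18*, named for a potassium transporter family, was nearest to *PRR1* at 0.08, *NMCP1* to *LHY* at 0.04, *URH2* to *PRR95* at 0.05, *OsTLP3* to *PRR73* at 0.12 and *OsPDIL5-2* to *PCL1* at 0.13. With 6 arrays in which replicate 1 stands apart, many genes share such patterns.

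Further genes of the pathway were taken from lists of names. Of 22 names of other clock genes, 1 gene was matched (*ELF3*) and 0 were measured. Both measured genes of a list of kinase names were called by replicate number, in opposite directions. Both lie at or above the median signal, where the F test called 31% of probe sets, against 14.8% of all. Whether these kinases act on clock proteins was not tested. *CKI1* was higher in replicate 1, with 1.02 (SE 0.12) against replicate 2, a call that was lost under median scaling. *HD16*, another casein kinase I, was lower with -0.89 (SE 0.15), at 2192.1, 3586.7 and 3371.1 in *sd37* and 1931.9, 4032.7 and 4026.9 in the wild type.

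All 6 measured genes of photoreceptors and light signalling were called in the F test, all at or above the median signal, where 31% of probe sets were called. The red light receptors split. *PHYA*, which senses far-red light, was lower in replicate 1, with 1394.4, 2468.5 and 2769.6 in *sd37* and 1661.1, 2891.7 and 3408.1 in the wild type, a log2 difference of -0.81 (SE 0.13, adjusted p = 0.00321) between replicates 1 and 2. *PHYB* at 0.92 (SE 0.13) and *PHYC* at 1.21 (SE 0.17) were higher. The blue light receptor *PHOT1A* was higher too, with 0.90 (SE 0.16). The calls of *PHYB*, *PHYC* and *PHOT1A* were lost after scaling to a common median. This list also holds *TGA2.2*, matched through the list name *BZIP1* and named after its values were seen, a factor better known from defence. Of the 6 genes, 0 were called between genotypes, beside 0 of all 57194 probe sets.

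Of 6 measured genes from a list of names tied to photoperiodic flowering, 3 were called by replicate number, beside the same 31%. The florigen gene *HD3A* had signals of 26.3, 759 and 2319.2 in *sd37* and 57.4, 2594.0 and 2426.6 in the wild type, so it was low in both replicate 1 arrays, intermediate in *sd37* replicate 2 and high in the rest. Its log2 difference was -5.17 (SE 0.35) between replicates 1 and 2 and -0.99 between *sd37* and the wild type, which was not called. *GHD8*, a repressor of flowering in long days, was higher in replicate 1, with 417, 146 and 96.5 in *sd37* and 557, 90.8 and 55.5 in the wild type. *EHD4*, an activator of flowering, was lower, at -0.79 (SE 0.14). None of the 6 was called between genotypes, beside 0 of all 57194 probe sets.

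Some markers of tissue and stage also differed by replicate number, beside 14.8% of all probe sets in the F test. The summed signal of 10 inflorescence and meristem genes was 2231, 17665 and 20863 in *sd37* replicates 1, 2 and 3 and 3075, 20920 and 19502 in the wild type. Of the 10, 5 were called lower in replicate 1 against each other number (*MADS1*, *MADS14*, *MADS15*, *MADS16* and *MADS18*) and 0 higher. *MADS34* was lower too but not called. Against replicate 2, replicate 1 was higher in log2 signal for *MADS6* (1.55), *MADS7* (2.46), *MADS8* (0.97) and *OSH1* (2.95). These were dim and not called. The sums mostly follow bright genes, such as *MADS18* with 1227.2, 10178.3 and 12102.0 in *sd37*. Of the genes best known from floral organs, *MADS6*, *MADS7* and *MADS8* had signals between 1.3 and 45.1 in all arrays. *MADS1* had 85.6, 596 and 829 in *sd37* and 24.4, 893 and 752 in the wild type, and *MADS16* had 688, 1605.1 and 1730.2 in *sd37* and 933, 1828.6 and 1546.7 in the wild type. No marker was at 0, but *OSH1* had 0.9 in wild-type replicate 2, under the floor of 1. No detection call was used, so a low signal does not show expression. The summed signal of 3 green leaf genes was 217712, 89783 and 105395 in *sd37* and 185920, 81419 and 84654 in the wild type, and all 3 were called higher in replicate 1. Of these, *CAB2R* kept its direction after quantile normalization, while *RCA* and *RBCS* turned to -0.04 and -0.10 between replicates 1 and 2. The sums of 6 root markers were 2249, 2535 and 3621 in *sd37* and 2118, 4384 and 3886 in the wild type, with 1 called by replicate number (*LSI1*), and those of 6 endosperm markers were 6565, 5763 and 6384 in *sd37* and 6408, 5298 and 5270 in the wild type, with 2 called (*GLUA2*, lower in replicate 1, and *GLB1*, higher). Against 14.8% of all probe sets and 31% of those at or above the median signal, these counts are no result about roots or endosperm. The part of these markers in the differences of the clock genes was not tested. In bulk tissue, fewer cells of a type and less RNA per cell cannot be told apart.

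**Figure D4:**
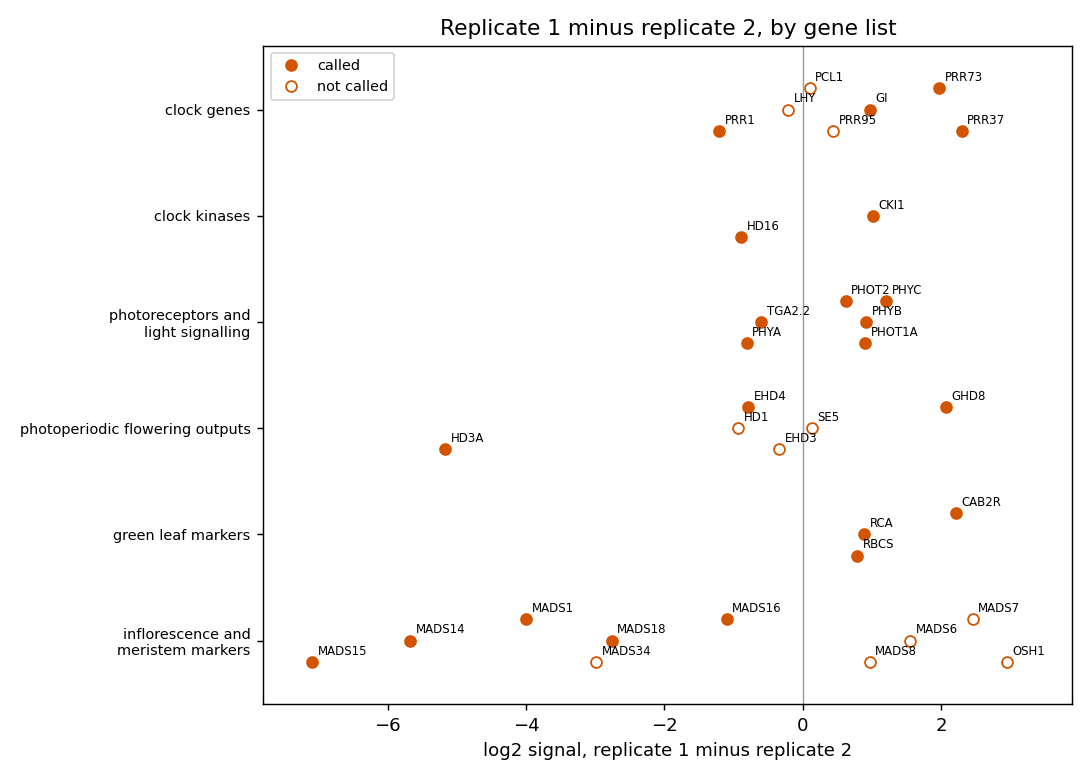
Log2 signal of replicate 1 minus replicate 2 (limma, 2 arrays per number) for the clock genes and 5 lists of related or marker genes, filled where called. Clock, light signalling, and inflorescence and meristem genes lie on both sides of 0. All 3 green leaf genes are above it (*RCA* and *RBCS* fall below it after quantile normalization). *MADS15*, *MADS14* and *HD3A* have the largest negative values.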

How the data were processed

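Gene expression was measured in seedlings of *sd37* and of the wild type on the Affymetrix Rice Genome Array. The authors report that a service labelled, hybridized, scanned and normalized the arrays. The deposited values are probe set intensity values on a linear scale with 1 decimal, and neither the methods nor the labels name the algorithm and scaling behind them. RNA was extracted with guanidinium isocyanate and phenol by the methods, and with a column kit by the labels.

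After 187 control and reporter probe sets were left out, signals were floored at 1 (1.76% lay under it) and put on the log2 scale. All 6 arrays entered limma 3.58.1 in R 4.3.3 (lmFit, eBayes with an intensity trend), once with the genotype and once with replicate number and genotype. The functions were tested on simulated data. Alternatives changed the floor (16), the scaling, the filter, the trend, the block and the arrays used.

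Of the probe sets, 22436 carry 1 gene in the platform table, 95 several and 34850 none listed. Names came from RefSeq (ASM3414082v1). For listed genes the probe set of highest mean was used. Names were chosen by smallest p, up to 4 a list for the F test and 2 for the genotype test. Outside that rule, all 10 measured inflorescence and meristem genes and *TGA2.2* were named. Nearest genes had a name and a mean at or above the median. The members and lists were chosen with earlier results of these data known, replicate 1 standing apart included. No sequences are shown, since none came with the files used here.

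Deviations from the group means correlated with 0.394, 0.134 and 0.16 for arrays of the same replicate number 1, 2 and 3. The main genotype fit had no block, and the replicate number entered as a block in an alternative fit only. Arrays of replicates 2 and 3 were as alike across numbers (0.13 and 0.163).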

Additional observations from a re-analysis of the deposited data

How the results depend on the processing

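Between genotypes 0 of the 7 clock genes were called under every alternative run, the replicate block included. Over all probe sets the main genotype fit called 0. The count was 6 with the replicate block, 10 with replicate 1 as a batch and 17 with replicates 2 and 3 only. The smallest adjusted p of the 7 under any alternative was 0.743. With replicates 2 and 3 only, the differences near 0 of *PRR73* (0.03, and 0.17 for its other probe set), *PRR37* (0.06) and *PRR1* (0.03) changed sign. With each array left out in turn, the genotype difference ranged from -0.0039 to 0.22 for *LHY*, -0.64 to 0.67 for *PRR73* (-0.65 to 0.79 for its other probe set), -0.72 to 0.77 for *PRR37* (-0.03 to 0.27 for the other), -0.05 to 0.37 for *PRR95*, -0.40 to 0.24 for *GI*, -0.48 to 0.40 for *PRR1* and -0.23 to 0.16 for *PCL1*. The genotypes did not overlap for 0 to 1 of the 7, which were *LHY* without *sd37* replicate 1 (beside 18.7% of all probe sets) and *PRR95* without wild-type replicate 1 (beside 23%), so these counts show nothing about the clock genes. For *HD3A* the left-out range was -2.80 to 0.90 around -0.99, and for *HD1* -0.08 to 0.94 around 0.57, with -0.25 in replicates 2 and 3 only, and neither was called.

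By replicate number, the F test called 949 probe sets with a floor of 16, 13634 with arrays scaled to a common median, 0 without the intensity trend (11707 at an unadjusted p under 0.05 and 1.5-fold), 1 in the ordinary analysis of variance, and 6103 to 9222 with an array left out, against 8460. Of the 7 clock genes it called 0 with the floor of 16, without the trend and in the ordinary analysis of variance, and 4 to 5 with an array left out. With the floor of 16 each contrast of replicate 1 called 2, *PRR37* and *GI*, beside 3089 probe sets against replicate 2 and 3426 against replicate 3. Without the trend and in the ordinary analysis of variance each contrast called 0. The left-out counts were 4 to 5 for both contrasts. For these last settings the shares of all probe sets are not given here. The cause of the differences by replicate number was not tested. Scaling to a common median moved the median log2 difference of all probe sets between replicates 1 and 2 to -0.30, against 0.35, and the share of calls higher in replicate 1 to 13.2%, against 46%. Under that scaling *PRR73*, *PRR37* and *PRR1* kept their calls. Differences that turned sign under it were *PRR95* (-0.22 against replicate 2, -0.06 against replicate 3), *PCL1* (-0.55 and -0.04), the other probe set of *PRR37* (-0.48 and -0.56), the other probe set of *LHY* (-0.14) and *RBCS* (-0.06 against replicate 3). Under quantile normalization these were the other probe set of *LHY* (-0.27), *PCL1* (-0.0029), *RCA* (-0.04 in both) and *RBCS* (-0.10 and -0.13). With an array left out, replicate 1 minus 2 ranged from -0.84 to 1.86 for the other probe set of *LHY*, -0.19 to 0.54 for the other probe set of *PRR37* and -0.06 to 0.27 for *PCL1*, and replicate 1 minus 3 from -0.23 to 0.50 for the other probe set of *PRR37*.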
